A study of Homo sapiens with 8 samples.

Results

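The G1 cyclins and the CDK inhibitors were followed in human CAPAN-2 cells, an established line of pancreatic adenocarcinoma, after knockdown (KD) of ErbB2 or of MUC4. The 10 genes were CCND1, CCND2, CCND3, CCNE1, CCNE2, CCNG2, CDKN1A, CDKN1B, CDKN1C and CDKN2B. They were taken as every probe whose accession maps to one of these symbols, which gave 10 of the 17240 genes and 20 of the 41000 probes on the arrays. The 8 Agilent 2-colour arrays each compared a knockdown with a pool of control RNA. ErbB2-KD 1 to 4 were clones stably transfected with a puromycin vector that encodes an ErbB2 shRNA, and they were compared with a pool of 4 NT clones that carried the empty vector. MUC4-KD 1 to 4 came from cells infected with a retroviral plasmid that targets MUC4 and selected in G418, and they were compared with a pool of 4 Mock clones that carried that empty vector. The methods give 1 clone for each array, and the labels name the clones for ErbB2-KD but not for MUC4-KD. A difference between clones of one line and an effect of the knockdown cannot be told apart for a single array. The labelled knockdown was in Cy5 on 2 arrays of each experiment and in Cy3 on the other 2.

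Passage through G1 depends on cyclins that bind and activate cyclin-dependent kinases (CDKs). D-type cyclins pair with CDK4 and CDK6 in response to growth signals, E-type cyclins pair with CDK2 at entry into S phase, and both kinds of complex phosphorylate the retinoblastoma protein and so free E2F factors. The CIP/KIP proteins p21 (CDKN1A), p27 (CDKN1B) and p57 (CDKN1C) bind cyclin and CDK complexes, and the INK4 protein p15 (CDKN2B) binds CDK4 and CDK6 and keeps D-type cyclins off. Cyclin G2 (CCNG2) is an atypical cyclin associated with cells that leave the cycle, and its gene and that of p27 are known targets of FOXO factors. In pancreatic adenocarcinoma the INK4 arm of this control is often lost.

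In brief, the ErbB2-KD arrays held less CDKN2B RNA than NT, and no cyclin probe passed the test there. RNA labelled MUC4-KD held more CCNG2, CDKN1B and CDKN1C RNA and less CDKN1A RNA than RNA labelled Mock. The ratios of 6 genes differed between the experiments, on 9 of 17 tested probes (10.7% of all tested probes differed). The experiments also differed in control pool, vector and selection, and these cannot be told apart from the knockdowns in such a difference. The mean log2 ratio of the brightest probe, knockdown over control, was -1.63 ± 0.62 (SD, n = 4 arrays) for CDKN2B in ErbB2-KD. In RNA labelled MUC4-KD it was 1.91 ± 0.23 for CCNG2, 0.88 ± 0.26 for CDKN1B, 2.44 ± 1.52 for CDKN1C and -1.22 ± 0.06 for CDKN1A (SD, n = 4 arrays each). A log2 ratio of 1 is a 2-fold difference, and a positive value means a higher signal in the RNA labelled as the knockdown. The methods name a single control pool for each experiment, and it was taken as 1 control sample. Each mean ratio was therefore tested against 0, and the spread between control clones did not enter. In the MUC4-KD experiment, however, the Mock channel varied more between arrays than the channel labelled as clones, as given below.

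The labels were checked on the targeted genes first. In ErbB2-KD the bright ERBB2 probe was lower than NT on 4 of 4 arrays, at -0.58, -0.32, -0.33 and -0.38, without passing the test (limma adjusted p = 0.145). The dim ERBB2 probe A_24_P284420 lay at 0.04, 0.03, 0.06 and 0.01 (limma adjusted p = 0.897). In the other experiment the 4 probes of MUC4 went against the label, since none had a mean below 0. The MUC4 probe A_24_P208825 stood at 1.71, 2.34, 2.21 and 1.08, higher in RNA labelled MUC4-KD on 4 of 4 arrays (limma adjusted p = 0.008). The probe A_24_P239183 also passed (mean 1.34 ± 0.84, SD, n = 4; limma adjusted p = 0.035). A_24_P239176 and A_24_P239177 did not, at 0.27 ± 0.23 and 0.41 ± 0.33, and were below 0 on array 4 (SD, n = 4; limma adjusted p = 0.167 and 0.098). A knockdown of MUC4 would be a lower signal there. The groups below are therefore named as RNA labelled MUC4-KD and RNA labelled Mock, every direction in this experiment is that of the labels, and the study's own list of changed genes runs the other way.

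The spread of each channel between arrays was measured as well. By the methods a pool is 1 RNA measured on every array, whereas the clones are different RNAs. In ErbB2-KD the channel labelled as clones varied more between arrays, with a median SD of the log2 signal over tested probes of 0.346 against 0.168 for NT. In the other experiment the channel labelled as the pool varied more, with a median SD of 0.249 in Mock and 0.149 in RNA labelled MUC4-KD. The control channel had the larger SD for 3 of 17 tested probes of the G1 cyclins and CDK inhibitors in ErbB2-KD (18.9% of all tested probes) and for 16 of 17 in the MUC4-KD experiment (73.0% of all tested probes). No sample was moved to another group. The Mock channel of MUC4-KD 4 had the lowest share of probes well above background of any channel (56.7%). What lies behind this order of the spreads was not tested.

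Testing was limited to probes that Feature Extraction marked as well above background in one of the RNAs (knockdown or control) on each of the 4 arrays. Of the 20 probes, 17 probes of 9 genes passed this filter in each experiment. The 3 probes of CCND2, which encodes cyclin D2, were well above background on 0 or 1 of 4 arrays in every RNA, so no ratio is given for this gene. Median spot signals lay between 100 and 593, with the highest on ErbB2-KD 2 (593 in Cy5 and 248 in Cy3), and no spot was saturated. On MUC4-KD 4 the Mock channel was well above background for 56.7% of probes, against 66.3%, 65.9% and 67.3% on MUC4-KD 1 to 3. Defining markers of ductal epithelium (KRT7, KRT8, KRT18, KRT19, EPCAM, CDH1 and MUC1) exceeded background in both RNAs of every array for 7 of 7 genes. Of 5 fibroblast markers with a probe, 2 were tested, with 0 called in ErbB2-KD and 1 higher in RNA labelled MUC4-KD, and no acinar marker was tested. These are bulk RNA samples, in which fewer cells of one kind and less RNA per cell cannot be told apart.

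Over all 17 tested probes, 1 was called in ErbB2-KD (0 higher, 1 lower), at an adjusted p under 0.05 over all tested probes, where 1.43% of 23869 probes were called (0.549% higher and 0.884% lower). Of the same probes in RNA labelled MUC4-KD, 6 were called, where 20.5% of 25047 probes were, with 5 higher (12.0% of all) and 1 lower (8.48% of all). The difference between the experiments was called for 9 of the 17 probes, from 6 genes, where 10.7% of 23081 probes were, with 6 higher (7.03% of all) and 3 lower (3.71% of all) in MUC4-KD minus ErbB2-KD. In ErbB2-KD 3 of the 17 probes were higher on 4 of 4 arrays (12.1% of all tested probes) and 2 were lower (15.3%), together 5 with 1 direction (27.4%). With RNA labelled MUC4-KD 9 were higher on 4 of 4 arrays (27.4% of all tested probes) and 3 were lower (22.0%), together 12 (49.4%). Arrays of the experiments did not overlap for 8 of the 17 probes, against 18.1% of all tested probes. The median ratio over the 17 probes was 0.03 in ErbB2-KD and 0.36 in RNA labelled MUC4-KD, beside -0.01 and 0.01 over all tested probes. With median centring of each array in place of loess, limma called 0 of the 17 probes in either experiment and 0 for the difference (5, 4 and 6 at an unadjusted p under 0.05). Over all tested probes it then called 31, 1 and 82. The direction of the differences rests on the labels of MUC4-KD. With the sign of those ratios turned, 6 of the 17 probes differed (2 higher, 4 lower), where 4220 of all 23081 probes did (2479 as labelled). The CDKN1C difference then became -0.01 (limma adjusted p = 0.995), and that of the brightest CDKN2B probe stayed at 1.41 (limma adjusted p = 0.014).

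**Figure D1:**
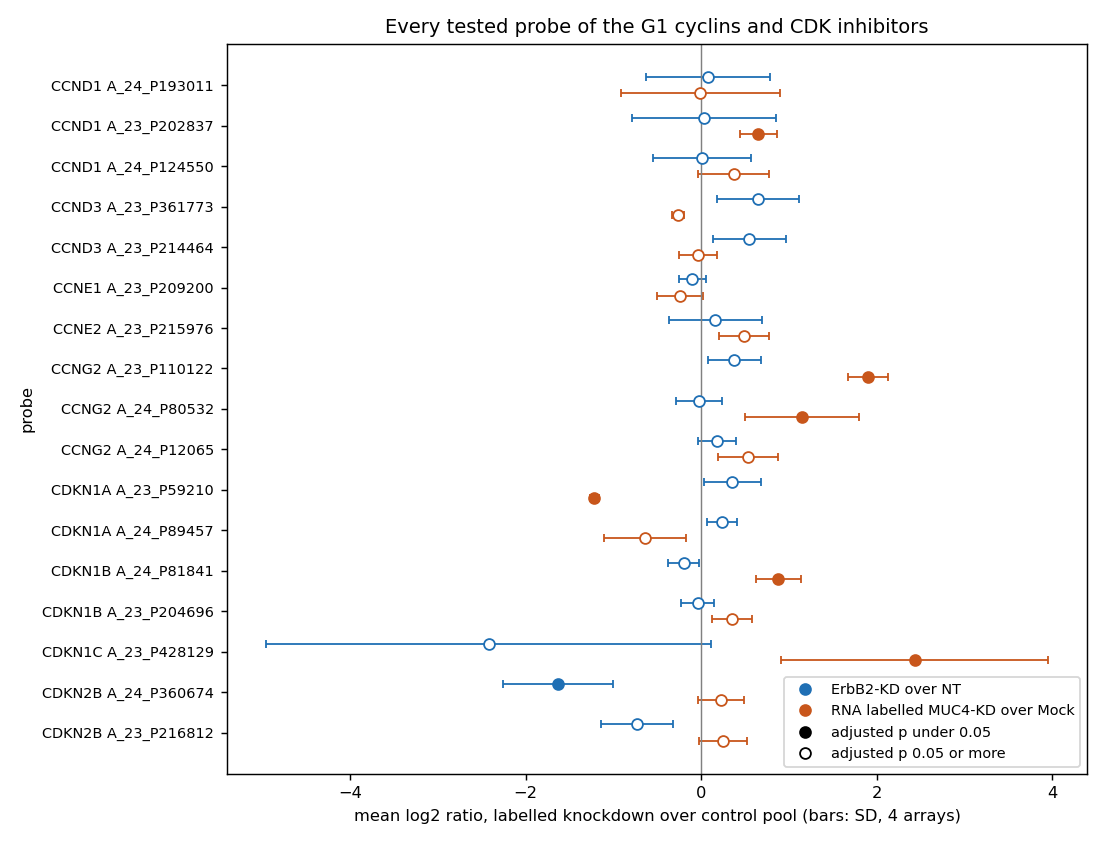
Mean log2 ratio with its SD over 4 arrays (horizontal axis) for the 17 tested probes (vertical axis), ErbB2-KD in blue and RNA labelled MUC4-KD in orange, filled where the adjusted p was under 0.05. In ErbB2-KD 1 probe is filled, and in RNA labelled MUC4-KD 6 probes are.

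The promoters of CCNG2, CDKN1B, CDKN1A and CDKN2B are shown, genes that carry differences below and had RefSeq windows at hand. CCND3 also carries a difference and had windows, which are described by their motif counts alone. Each is the 250 bases before the transcription start (RefSeq, GRCh38.p14), and capitals mark a match, on either strand, to one of 5 motifs: AP-1 (TGANTCA), ATF/CRE core (TGACGTC), E2F core (TTTNNCG), FOXO (GTAAACA) and GC box (GGGCGG). CCNG2 lies at chr4:77156957-77157206 on the plus strand, CDKN1B at chr12:12717118-12717367 on the plus strand, CDKN1A at chr6:36678464-36678713 on the plus strand and CDKN2B at chr9:22009306-22009555 on the minus strand.
CCNG2: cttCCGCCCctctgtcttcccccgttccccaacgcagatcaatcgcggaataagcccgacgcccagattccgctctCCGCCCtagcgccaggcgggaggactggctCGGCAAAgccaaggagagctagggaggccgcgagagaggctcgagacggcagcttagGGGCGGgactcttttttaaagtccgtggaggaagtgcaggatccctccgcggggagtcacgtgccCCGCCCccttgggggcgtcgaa
CDKN1B: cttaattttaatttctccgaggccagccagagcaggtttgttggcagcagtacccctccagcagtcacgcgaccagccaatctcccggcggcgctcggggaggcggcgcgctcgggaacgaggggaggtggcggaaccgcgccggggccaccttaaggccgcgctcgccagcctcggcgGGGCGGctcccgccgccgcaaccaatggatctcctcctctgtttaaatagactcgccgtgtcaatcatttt
CDKN1A: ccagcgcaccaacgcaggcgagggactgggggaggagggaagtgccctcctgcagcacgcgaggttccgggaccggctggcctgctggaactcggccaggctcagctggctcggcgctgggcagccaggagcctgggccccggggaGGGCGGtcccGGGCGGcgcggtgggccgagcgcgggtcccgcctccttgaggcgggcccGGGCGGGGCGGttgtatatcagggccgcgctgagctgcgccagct
CDKN2B: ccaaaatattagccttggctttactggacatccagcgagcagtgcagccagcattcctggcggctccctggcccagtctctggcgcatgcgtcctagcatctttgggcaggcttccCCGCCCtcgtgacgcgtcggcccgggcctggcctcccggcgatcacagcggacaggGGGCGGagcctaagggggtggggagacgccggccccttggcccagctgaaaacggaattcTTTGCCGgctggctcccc

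The windows held GC boxes and little else of what was searched. The CCNG2 window had 4 GC boxes and 1 E2F core, CDKN1A had 4 GC boxes of which the last pair overlap by 1 base, CDKN2B had 2 GC boxes and 1 E2F core, and CDKN1B had 1 GC box. Over 35116 windows of this length, 42.6% held a GC box and 16.8% an E2F core. No AP-1, ATF/CRE or FOXO match lay in the 4 windows, as was so for most windows, since 6.57%, 3.12% and 2.98% of all of them held one. The CCND3 windows had 5, 2 and 0 GC boxes and the CCNE1 window had 7, with no match to the other motifs. A match is a description of the letters and not a bound site, and the absence of one covers these 250 bases alone.

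**Figure D2:**
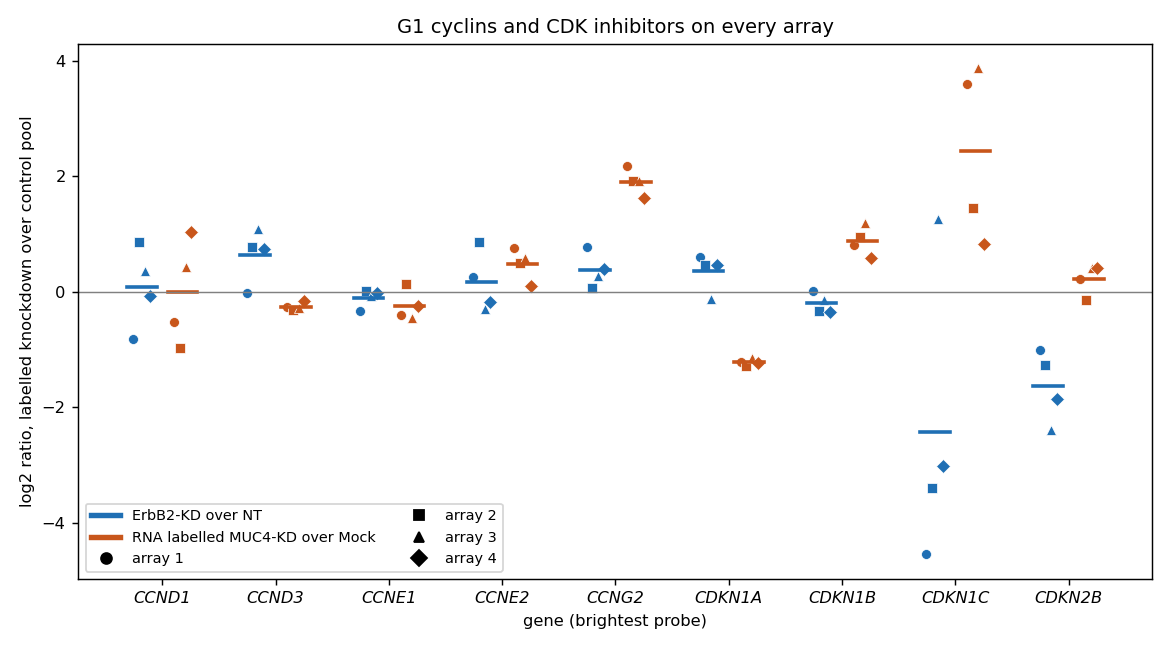
Log2 ratio of labelled knockdown over control pool (vertical axis) for the brightest tested probe of 9 genes (horizontal axis), with 1 symbol for each array and a bar at the mean of 4 arrays, ErbB2-KD in blue and RNA labelled MUC4-KD in orange. CDKN2B is below 0 on every ErbB2-KD array, CCNG2 and CDKN1B are above 0 and CDKN1A is below 0 on every array of the other experiment, and CDKN1C has the widest scatter.

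Cyclin D1, the D-type cyclin most often raised in epithelial tumours, did not move one way in ErbB2-KD on any of its 3 probes. The brightest probe A_24_P193011 read -0.82, 0.86, 0.35 and -0.08 on arrays 1 to 4, and A_23_P202837 read -1.17, 0.55, 0.55 and 0.19. Clone 1 was below NT and clones 2 and 3 were above it on all 3 probes. The means were 0.08 ± 0.71, 0.03 ± 0.82 and 0.01 ± 0.56 (SD, n = 4), each far smaller than the spread between clones (limma adjusted p = 0.919, 0.972 and 0.987).

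The CCND1 probes disagreed in RNA labelled MUC4-KD. The probe A_23_P202837 was higher on 4 of 4 arrays at 0.92, 0.71, 0.48 and 0.51 (mean 0.65 ± 0.21, SD, n = 4; limma adjusted p = 0.022). The brightest probe read -0.52, -0.98, 0.42 and 1.04 (mean -0.01 ± 0.91, SD, n = 4; limma adjusted p = 0.990). Its sign followed the dye, being negative on both arrays with the labelled knockdown in Cy3 (mean -0.75) and positive on both with it in Cy5 (mean 0.73). Opposite signs in the 2 dye orientations were seen for this 1 of the 17 probes in this experiment (11.1% of all tested probes) and for 2 in ErbB2-KD (17.0% of all tested probes). The call of A_23_P202837 was lost without array 1, 2 or 3 of this experiment (limma adjusted p from 0.088 to 0.114) and with 1 spread over all 8 arrays (limma adjusted p = 0.083). The third probe, A_24_P124550, was at 0.24, 0.04, 0.96 and 0.24 (mean 0.37 ± 0.40, SD, n = 4; limma adjusted p = 0.161). No direction was settled for cyclin D1.

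Cyclin D3 was the one D-type cyclin whose ratio differed between the experiments. In ErbB2-KD the brightest CCND3 probe A_23_P361773 read -0.02, 0.77, 1.08 and 0.74, with clone 1 at the level of NT and the other 3 clones above it. The arrays with RNA labelled MUC4-KD read -0.26, -0.32, -0.29 and -0.16, so the arrays of the experiments did not overlap. Neither mean passed its own test, at 0.64 ± 0.47 and -0.26 ± 0.07 (SD, n = 4; limma adjusted p = 0.167 and 0.114). The difference, MUC4-KD minus ErbB2-KD, was -0.90 (limma adjusted p = 0.037), and it was not called in 6 of the 8 fits that left out 1 array (limma adjusted p up to 0.100). The second probe, A_23_P214464, had means of 0.55 and -0.04 and a difference of -0.59 that was not called (limma adjusted p = 0.125).

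Neither E-type cyclin passed the test against its control, though CCNE2 came near in RNA labelled MUC4-KD. CCNE1, which encodes cyclin E1 and is measured by 1 probe, read -0.33, 0.02, -0.07 and -0.02 in ErbB2-KD and -0.40, 0.13, -0.44 and -0.25 in RNA labelled MUC4-KD (limma adjusted p = 0.711 and 0.227). CCNE2, for cyclin E2, read 0.26, 0.87, -0.29 and -0.18 in ErbB2-KD (mean 0.16 ± 0.53, SD, n = 4; limma adjusted p = 0.748). Its ratios in RNA labelled MUC4-KD were 0.77, 0.49, 0.59 and 0.10 (mean 0.49 ± 0.28, SD, n = 4; limma adjusted p = 0.056). The last value sat just outside the threshold and passed it without array 4 (limma adjusted p = 0.013). CCNE2 was well above background on 3 of 4 arrays in Mock.

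CCNG2 rose in RNA labelled MUC4-KD, and every array showed it. The signal of its brightest probe A_23_P110122 in RNA labelled MUC4-KD was 12.41, 12.29, 12.20 and 12.16 on the log2 scale, against 10.23, 10.38, 10.28 and 10.54 in Mock. All 4 signals of RNA labelled MUC4-KD lay above all 4 of Mock. The ratios were 2.18, 1.91, 1.91 and 1.62 (mean 1.91 ± 0.23, SD, n = 4; limma adjusted p = 0.002), and the call held without each array in turn. The probe A_24_P80532 also passed, at 1.54, 1.04, 1.74 and 0.28 (mean 1.15 ± 0.65, SD, n = 4; limma adjusted p = 0.030), but was lost without array 1, 2 or 3. The dimmest probe, A_24_P12065, had a mean of 0.53 with an SD of 0.34 over 4 arrays (limma adjusted p = 0.059). Both dimmer probes were well above background on 3 of 4 arrays in Mock.

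In ErbB2-KD the same CCNG2 probe read 0.78, 0.07, 0.27 and 0.39, above 0 on 4 of 4 arrays but without passing the test (mean 0.38 ± 0.30, SD, n = 4; limma adjusted p = 0.255). The difference between the experiments was 1.53 for A_23_P110122 (limma adjusted p = 0.004) and 1.18 for A_24_P80532 (limma adjusted p = 0.040). Leaving out any 1 of the 8 arrays kept the first call, while the second was kept only without MUC4-KD 4. For the dimmest probe, A_24_P12065, the difference was 0.35 and was not called (limma adjusted p = 0.296). Within slides 1, 2 and 3, each of which held arrays of both experiments, the first difference was 1.56, 1.38 and 1.65. It was thus about as large on each slide as over all of them. The difference for A_24_P80532 was less even, at 0.14, 1.08 and 1.80 on these slides.

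**Figure D3:**
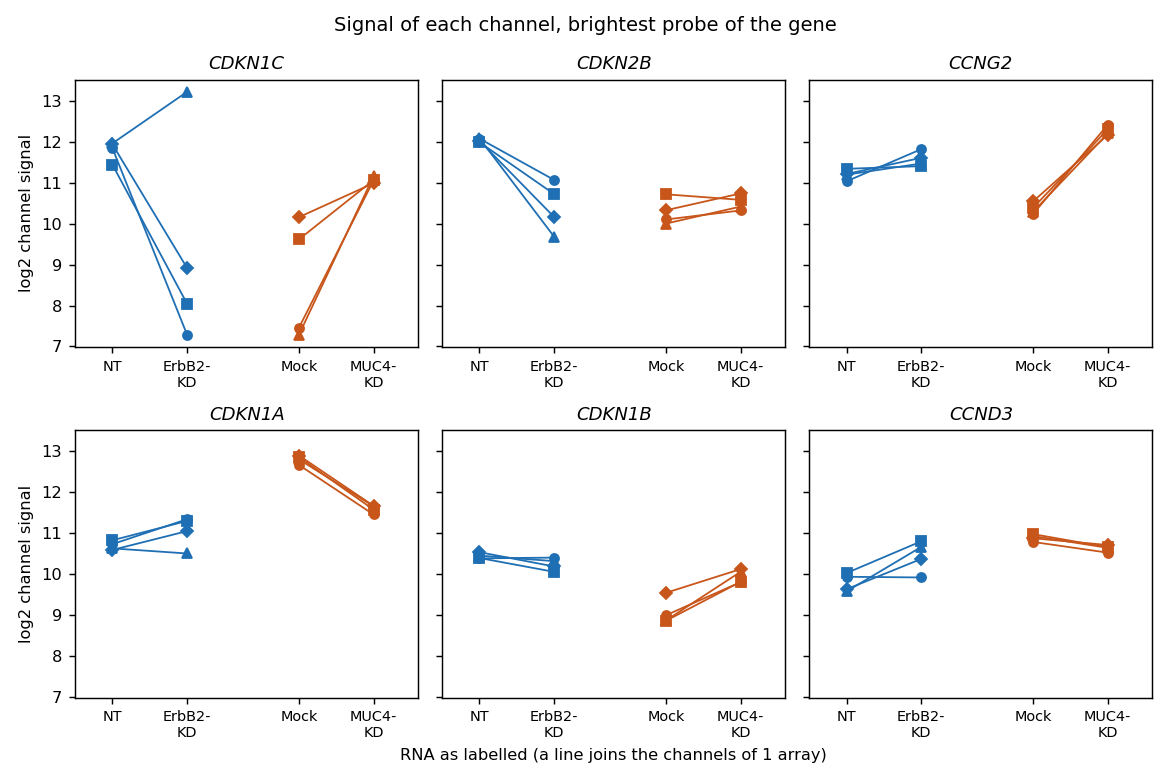
Log2 signal (vertical axis) in the control and knockdown channel of every array for the brightest probe of 6 genes, with a line joining the channels of 1 array, ErbB2-KD in blue and the MUC4-KD experiment in orange, labels as deposited. For CDKN1C the ErbB2-KD channel spans 7.29 to 13.21 while NT stays between 11.44 and 11.96, and in the other experiment Mock spans 7.28 to 10.15 while RNA labelled MUC4-KD stays between 10.98 and 11.15.

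The inhibitors of the CIP/KIP family did not move together. CDKN1A, which encodes p21 and is a classical p53 target, fell in RNA labelled MUC4-KD. Its brightest probe A_23_P59210 had signals of 11.46, 11.57, 11.66 and 11.67 in that RNA and of 12.66, 12.85, 12.80 and 12.89 in Mock. The groups did not overlap, and the ratios of -1.21, -1.28, -1.15 and -1.23 were the most even of all 17 probes (mean -1.22 ± 0.06, SD, n = 4; limma adjusted p = 0.003). The second probe, A_24_P89457, was lower on 4 of 4 arrays but uneven, at -0.56, -0.78, -1.17 and -0.04 (limma adjusted p = 0.062).

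In ErbB2-KD the brightest CDKN1A probe read 0.61, 0.47, -0.12 and 0.46, and clone 3 was the one below NT on it (mean 0.35 ± 0.33, SD, n = 4; limma adjusted p = 0.299). The second probe, A_24_P89457, read 0.07, 0.13, 0.32 and 0.44, so clone 3 was above NT there (limma adjusted p = 0.355). The 2 experiments differed by -1.57 on the brightest probe (limma adjusted p = 0.003) and by -0.88 on the second (limma adjusted p = 0.045). The first stayed called when any 1 of the 8 arrays was left out, and the second only when MUC4-KD 4 was. Within slides 1, 2 and 3 the first was -1.70, -1.52 and -1.64, and the second was -0.17, -0.98 and -1.30.

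CDKN1B, which encodes p27, read above 0 on both probes and on 4 of 4 arrays with RNA labelled MUC4-KD, and 1 of these probes passed the test. The brightest probe A_24_P81841 read 0.81, 0.95, 1.19 and 0.58 (mean 0.88 ± 0.26, SD, n = 4; limma adjusted p = 0.013). The call was lost without array 1, 2 or 3 (limma adjusted p from 0.063 to 0.087), while the mean stayed between 0.78 and 0.98. The second probe, A_23_P204696, read 0.47, 0.52, 0.41 and 0.02 and did not pass (limma adjusted p = 0.091). In ErbB2-KD the CDKN1B ratios were 0.02, -0.34, -0.13 and -0.35, which did not pass (mean -0.20 ± 0.18, SD, n = 4; limma adjusted p = 0.440). The experiments differed by 1.08 on the brightest probe (limma adjusted p = 0.009), a call kept without each of the 8 arrays. On the second probe the difference was 0.39 and was not called (limma adjusted p = 0.176).

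CDKN1C, which encodes p57 and is an imprinted gene, had the largest ratios and the largest spread. In ErbB2-KD the 4 clones had log2 signals of 7.29, 8.05, 13.21 and 8.92 against 11.84, 11.44, 11.96 and 11.93 in NT. Clones 1, 2 and 4 were far below the pool and clone 3 was above it, and NT itself hardly moved. The ratios were -4.55, -3.39, 1.26 and -3.01, and the mean of -2.42 ± 2.54 (SD, n = 4) did not pass the test (limma adjusted p = 0.237).

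In the MUC4-KD experiment it was the control channel of CDKN1C that moved. Its signals in RNA labelled MUC4-KD were 11.05, 11.06, 11.15 and 10.98, while those in Mock were 7.46, 9.61, 7.28 and 10.15. For this probe arrays 1 and 3 resembled each other and so did arrays 2 and 4, and each of these pairs has opposite dyes. Over all probes the log2 ratios of arrays 1 and 3 correlated at r = 0.815 and those of 2 and 4 at r = 0.353, beside 0.803 for 1 and 2 and 0.509 for 3 and 4. The methods state 4 clones, and if the pairs were dye swaps of 2 clones, n would be 2 and not 4 for every mean of this experiment. The ratios were 3.60, 1.45, 3.87 and 0.83 (mean 2.44 ± 1.52, SD, n = 4; limma adjusted p = 0.033). With these pairs averaged, which leaves 2 values, the call was lost (limma adjusted p = 0.059), as it was without array 1, 2 or 3 (limma adjusted p from 0.076 to 0.151). The difference between the experiments was 4.86 (limma adjusted p = 0.032), and it was kept only without ErbB2-KD 3 or without MUC4-KD 4 among the 8 fits that left out 1 array.

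CDKN2B, which encodes the INK4 protein p15, was the one gene to pass the test in ErbB2-KD. Its brightest probe A_24_P360674 had signals of 11.06, 10.72, 9.68 and 10.16 in the clones and of 12.07, 11.98, 12.08 and 12.02 in NT. The groups did not overlap, and clones 3 and 4 were lower than clones 1 and 2, which had the other dye. The ratios were -1.01, -1.26, -2.40 and -1.86 (limma adjusted p = 0.042). Without array 1, 3 or 4 the call was lost (limma adjusted p from 0.103 to 0.143), with means from -1.84 to -1.38. The second probe, A_23_P216812, was also lower on 4 of 4 arrays, at -0.80, -0.15, -1.09 and -0.89 (mean -0.73 ± 0.41, SD, n = 4; limma adjusted p = 0.116), and it passed without array 2 (limma adjusted p = 0.039).

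Both CDKN2B probes lay near 0 in RNA labelled MUC4-KD, at 0.23 ± 0.26 and 0.25 ± 0.28 (SD, n = 4; limma adjusted p = 0.250 and 0.219). The experiments differed by 1.86 on the brightest probe (limma adjusted p = 0.008) and by 0.99 on the second (limma adjusted p = 0.030). The second was lost in 5 of the 8 fits that left out 1 array. The first held in all 8 and was 1.67, 1.57 and 2.18 within slides 1, 2 and 3, where the second was 0.24, 0.90 and 1.37. On the brightest probe the mean log2 signal was 10.41 in ErbB2-KD and 10.51 in RNA labelled MUC4-KD. In the control pools it was 12.04 for NT and 10.28 for Mock.

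Other genes of the G1 machinery were read from a list of 33 genes, of which 32 had a probe. None of their 49 tested probes was called in ErbB2-KD, where 1.43% of all tested probes were. In RNA labelled MUC4-KD 13 of 50 tested probes rose and 3 fell, beside 12.0% and 8.48% of all tested probes, and by brightest probe 10 genes rose and 3 fell. The rise was densest among the further CDK inhibitors and cyclins (CDKN2C, CDKN2D, CDKN3, CCNG1 and CCNA2), where 5 of 5 genes rose with a median of 1.12. CDKN2D and CDKN2C, which encode INK4 inhibitors, were at 1.52 ± 0.14 and 1.30 ± 0.38, and CDKN3, a phosphatase that acts on CDKs, stood at 1.12 ± 0.07 (SD, n = 4; limma adjusted p = 0.003, 0.009 and 0.004). Among the kinases 1 of 6 genes rose and 1 fell, among pocket proteins and E2F factors 1 of 8 rose and 1 fell, among turnover genes 2 of 10 rose and 1 fell, and 1 of 3 FOXO factors rose, and several of these shares lie near those over all tested probes. Proliferation markers split in RNA labelled MUC4-KD, where 4 of 8 rose, 2 fell and 2 were not called. The mitotic genes CDK1 and TOP2A rose, at 1.42 ± 0.20 and 1.34 ± 0.90 (SD, n = 4; limma adjusted p = 0.004 and 0.041). The replication helicase genes MCM2 and MCM5, named after their values were seen, fell, at -0.71 ± 0.15 and -0.64 ± 0.17 (SD, n = 4; limma adjusted p = 0.015 and 0.020). The 2 not called were MCM6 at -0.26 ± 0.29 and PCNA at 0.21 ± 0.30 (SD, n = 4; limma adjusted p = 0.217 and 0.324). In ErbB2-KD 0 of the 8 were called. Their part in the ratios of the G1 cyclins and CDK inhibitors was not tested.

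**Figure D4:**
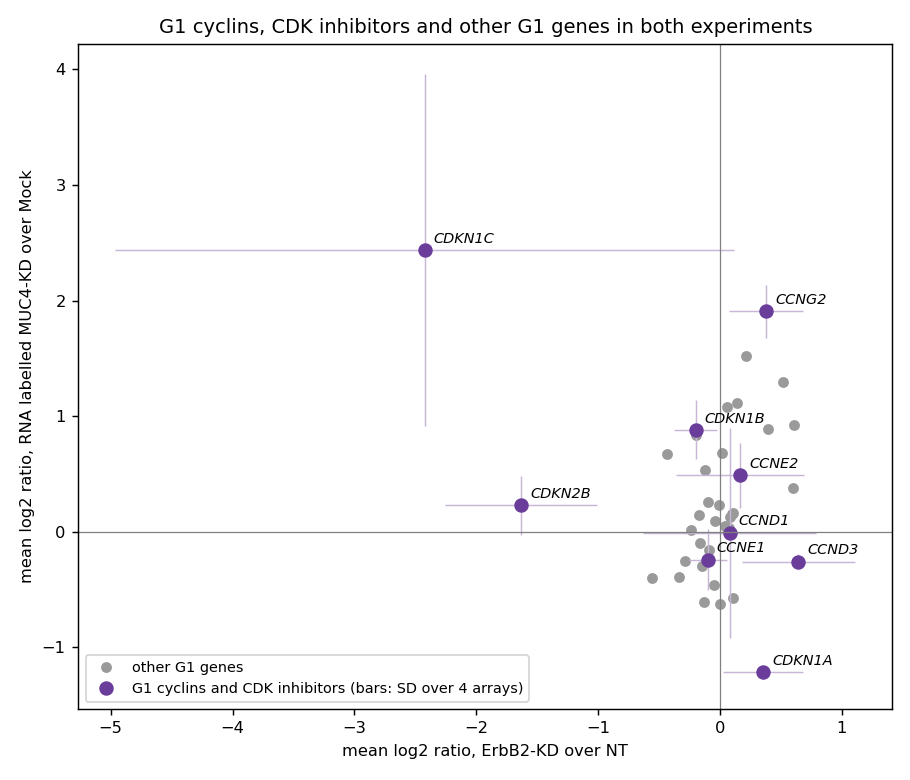
Mean log2 ratio in ErbB2-KD (horizontal axis) against that in RNA labelled MUC4-KD (vertical axis) for the brightest probe of 9 G1 cyclins and CDK inhibitors (purple, bars are the SD over 4 arrays) and 32 other G1 genes (grey). CDKN1C at -2.42 and 2.44 and CDKN2B at -1.63 and 0.23 lie to the left of the grey points.

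The genes whose ratios over the 8 arrays were most like those of CCND1 and CDKN1B were found by Pearson's r among the brightest probes of 11700 genes. For the brightest CCND1 probe they were TCHP (r = 0.991), ICMT (r = 0.961) and NONO (r = 0.960). For CDKN1B they were IFT88 (r = 0.987), ARID5B (r = 0.981) and GATA6 (r = 0.980). These are descriptions over 8 arrays that share 2 pools and the dye orientations, and the CCND1 probe is the one whose sign followed the dye.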

How the data were processed

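Gene expression was measured on 8 arrays of 43376 spots (41000 probes) in CAPAN-2 clones, 4 for each knockdown. The authors scanned the arrays with Agilent Feature Extraction 10.5 (10.5.1.1 per the file headers), and the deposited files hold raw spot and background intensity in each channel and a log10 ratio of Cy5 over Cy3, which was background-subtracted and dye-normalized. A deposited table of log10 ratios equals these, turned to labelled knockdown over control (largest difference 5e-06), and was not used separately. The study went on with GeneSpring, a fold change and asymptotic p-values. A Student's test is named in its general statistics.

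Here, in R 4.3.3 with limma 3.58.1, median intensities were corrected by normexp (offset 50), outlier spots were left out, arrays were normalized by loess, ratios were turned by the dyes in the labels, and spots of a probe were averaged. Channel signals were additionally scaled between arrays (Aquantile). Ratios were tested against 0 with lmFit and eBayes, and experiments against each other over 8 arrays. P-values were adjusted by Benjamini-Hochberg over all tested probes. With 4 arrays, sign flips allow no exact p under 0.125. The p-values measure only the spread between arrays.

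Accessions gave a symbol to 25398 probes, and 15602 stayed unnamed. All 10 genes are named, each by its brightest probe with the others beside it. From the other lists, at most the 5 called genes with the largest absolute mean ratio in each experiment were to be named. In RNA labelled MUC4-KD, MCM2, MCM5, MCM6 and PCNA were named beyond these after their values were seen. CCNG1 and CCNA2 were also named, without values of their own. The genes and lists were chosen with earlier results of these data known. On simulated data with 200 changed probes, a log2 change of 1 was recovered for 28.0% of them in ErbB2-KD (23869 probes), 27.5% in MUC4-KD (25047 probes) and 35.5% for the difference (23081 probes) and a change of 2 for 90.0%, 80.0% and 84.5%. False calls, of unchanged probes, numbered 0, 2 and 11 in the same order at a change of 1 and 10, 6 and 16 at a change of 2. In the real data 5131 probes were called in MUC4-KD and 2479 for the difference, so these recoveries need not hold there. Alternatives were offset 10, the Feature Extraction ratios, median centring, no filter, both channels above background, dye as a term, slide as a block, replicate block, an intensity trend, 1 spread over all arrays, the methods' t-test (that of the general statistics) on the same replicates, averaged array pairs, gene means and leaving out each array. Turning the sign of the MUC4-KD ratios was chosen after seeing the data. Same-numbered arrays of the experiments hold RNA of different knockdowns. The deviations of their ratios from the mean of their experiment, over the probes tested in both, correlated at -0.24 to -0.05, so the numbers were not taken as pairs.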

Additional observations from a re-analysis of the deposited data

Results flagged for a closer look

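The ratios of 9 probes differed between the experiments by limma's test of the difference over 8 arrays (MUC4-KD minus ErbB2-KD on the log2 scale, adjusted p under 0.05, directions as labelled). They were higher by 4.86 for CDKN1C A_23_P428129, 1.86 for CDKN2B A_24_P360674, 0.99 for CDKN2B A_23_P216812, 1.53 for CCNG2 A_23_P110122, 1.18 for CCNG2 A_24_P80532 and 1.08 for CDKN1B A_24_P81841. They were lower, at -1.57 for CDKN1A A_23_P59210, -0.88 for CDKN1A A_24_P89457 and -0.90 for CCND3 A_23_P361773. Mean log2 signals of the brightest probes follow in the order ErbB2-KD, RNA labelled MUC4-KD, NT and Mock. CDKN2B had 10.41, 10.51, 12.04 and 10.28, and CDKN1A 11.05, 11.59, 10.69 and 12.80. CDKN1B had 10.24, 9.95, 10.44 and 9.07, and CCND3 10.44, 10.63, 9.79 and 10.89. CCNG2 had 11.57, 12.27, 11.19 and 10.36, and CDKN1C 9.37, 11.06, 11.79 and 8.63. In each of these genes the control pools stood further apart than the knockdown RNAs. Of 34 groups of 4 arrays, 0 held an array that stood apart by Dixon's test, where chance gives about 1 in 20.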

How the results depend on the processing

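The counts of probes called depended on the settings. With median centring in place of loess, 0 were called in ErbB2-KD, in MUC4-KD and for the difference (5, 4 and 6 at an unadjusted p under 0.05), where over all tested probes limma called 31, 1 and 82. The methods' t-test gave 0, 1 and 4 after Benjamini-Hochberg and 2, 8 and 11 at an unadjusted p under 0.05. Over all tested probes it gave 0, 106 and 694 after Benjamini-Hochberg. Without a filter on dim probes, ErbB2-KD had 0 (6 at an unadjusted p under 0.05) and the difference 4, beside 50 and 1734 over all probes. ErbB2-KD had 2 with the slide as a random block (estimated over 8 arrays, since 4 arrays on 3 slides gave no estimate) and 2 with 1 spread over all 8 arrays. Over all tested probes, 1040 and 1068 were then called. The difference had 3 with the MUC4-KD pairs averaged (627 over all tested probes) and 5 genes with gene means (1425 of all 11711 tested genes). Same-numbered arrays share only a number, and with the replicate block the difference had 5 (783 over all tested probes). Leaving out 1 array, the counts ran from 0 to 2 in ErbB2-KD, from 2 to 10 in MUC4-KD and from 4 to 9 for the difference. Over all tested probes the difference then had from 737 to 4346. In ErbB2-KD the count was 0 without array 1, 3 or 4 (0, 4 and 33 over all tested probes) and 2 without array 2 (487 over all). In MUC4-KD it was 2 without array 1, 2 or 3 (588, 960 and 154 over all) and 10 without array 4 (9347 over all). The cause of these shifts was not tested.

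With the sign of the MUC4-KD ratios turned, the difference reversed to -0.69 and -0.38 for CCND1 A_23_P202837 and A_24_P124550, 0.34 for CCNE1, -0.65 for CCNE2, -2.28, -0.71 and -1.13 for CCNG2 A_23_P110122, A_24_P12065 and A_24_P80532, 0.86 and 0.40 for CDKN1A A_23_P59210 and A_24_P89457, -0.32 and -0.68 for CDKN1B A_23_P204696 and A_24_P81841, and -0.01 for CDKN1C. Other reversals touched no call. Median centring turned CCND1 A_23_P202837 (-0.0078) and A_24_P124550 (-0.012) in ErbB2-KD, CCND1 A_24_P193011 in MUC4-KD (0.11) and in the difference (0.079), and the CCNE1 difference (0.095). The offset of 10 turned CCND1 A_24_P124550 in ErbB2-KD (-0.0067), gene means turned CCND1 in MUC4-KD (0.34) and in the difference (0.30), and the Feature Extraction ratios turned CCND3 A_23_P214464 in MUC4-KD (0.12).

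Leaving out 1 array turned some small ratios. In ErbB2-KD the ranges were -0.18 to 0.38 for CCND1 A_24_P193011, -0.14 to 0.43 for CCND1 A_23_P202837, -0.15 to 0.28 for CCND1 A_24_P124550, -0.070 to 0.32 for CCNE2, -0.11 to 0.075 for CCNG2 A_24_P80532 and -0.12 to 0.035 for CDKN1B A_23_P204696. In MUC4-KD they were -0.36 to 0.32 for CCND1 A_24_P193011 and -0.11 to 0.054 for CCND3 A_23_P214464, and the CCND1 A_24_P193011 difference ran from -0.44 to 0.24.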
